A study of Mus musculus with 3 samples.

Results

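Nuclear tRNA genes were examined for peaks of RXRA, the retinoid X receptor alpha, a nuclear receptor that binds DNA together with partner receptors. The genes were all those of biotype tRNA in the RefSeq table of mouse build GRCm38.p6 (mm10) outside the mitochondrial chromosome, 408 of the 430 tRNA genes listed and of 49960 nuclear genes of any kind. The other 22 tRNA genes are mitochondrial. Marked here means overlapped by a peak over 1 bp or more.

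The series mapped RXRA by CUT&RUN, which uses an antibody to bring a nuclease to the protein in permeabilised cells and sequences the DNA set free. The HSC library held 10000 haematopoietic stem cells, which were Lin-cKit+Sca1+CD48-CD150+, and each of the 2 MPP libraries held 50000 multipotent progenitors, which were Lin-cKit+Sca1+CD150-. All cells were from bone marrow of C57BL/6 mice of about 10 months, pooled from 3 or 4 animals, and all were exposed for 1 h to 1 mM bexarotene, an RXR agonist. The genotype field gives VavCre+ and WT, a Cre driven by a promoter of blood cells, while the growth protocol gives Rxrabfl/fl (WT), so which alleles the cells carried is not settled by the labels.

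No untreated cells and no library with a control antibody were used here. With 1 HSC library, and with labels that do not say whether the MPP libraries came from separate pools, no difference has a replicate check and no p-value is given. Intervals on shares are 95% exact binomial (Clopper-Pearson) and cover counting error only. Neighbouring tRNA genes can share a peak, so the genes are not independent draws.

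Transfer RNAs carry amino acids to the ribosome, and cells hold many gene copies for most of them. The genes are transcribed by RNA polymerase III from a promoter that lies inside the gene, the A box and the B box, which the factor TFIIIC binds before TFIIIB places the polymerase upstream of the start. Copies stand alone or in clusters, some of them far from any gene that codes for protein.

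Of the 408 genes, 4 lie wholly inside a promoter window of the RefSeq sequence table, and they are shown because their letters carry the internal promoter that the peaks lay over. All 4 were marked in MPP replicate 1, where 10.0% of the 408 genes were. The promoter windows are those of Gm32420, Gm46404, Gm38989 and Polg, in the order of the lines below. A peak at those gene starts cannot be told apart from one at the tRNA gene. The lines give the gene strand, 5′ to 3′, with the anticodon and then the B box letters in capitals.
n-TAagc16, an alanine tRNA gene, chr13:21222586-21222657, plus strand: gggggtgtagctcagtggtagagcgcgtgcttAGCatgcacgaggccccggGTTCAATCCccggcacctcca
n-TVcac9, a valine tRNA gene, chr13:23446142-23446214, minus strand: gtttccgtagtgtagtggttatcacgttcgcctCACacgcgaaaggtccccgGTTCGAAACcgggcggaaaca
n-TTagt9, a threonine tRNA gene, chr7:35234770-35234843, minus strand: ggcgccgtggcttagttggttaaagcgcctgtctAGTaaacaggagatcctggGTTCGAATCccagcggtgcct
n-TRtcg5, an arginine tRNA gene inside Polg, chr7:79466419-79466491, plus strand: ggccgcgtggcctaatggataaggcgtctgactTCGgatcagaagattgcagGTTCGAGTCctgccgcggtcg
The B box letters searched were GTTCNANNC, read on either strand, and they occur in 9.33% of the 32817 promoter windows of 300 bp. The match is a description of these letters, not a binding site for RXRA. Counted from the 5′ end of the gene, the replicate 1 summits lay at -20 bp for n-TAagc16, 101 bp for n-TVcac9 and -2 bp for n-TTagt9. For n-TRtcg5 the summit lay at 22 bp, and only this one fell inside its gene. Only n-TTagt9 was also marked in replicate 2, with its summit at 17 bp.

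Few tRNA genes were marked in HSC and many more in the MPP libraries. In HSC 2 of the 408 genes were marked, or 0.490% (interval 0.0594 to 1.76). In MPP replicate 1 the count was 41, or 10.0% (7.31 to 13.4). In MPP replicate 2 it was 62, or 15.2% (11.9 to 19.1). The share was thus lowest in HSC and highest in replicate 2, although replicate 1 had the longer peak list.

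The level over the genome at large was measured with end-to-end windows of 72 bp, the median tRNA gene length, over the nuclear chromosomes. Of 37552075 windows, 0.0630% were overlapped by an HSC peak, 0.441% by a replicate 1 peak and 0.315% by a replicate 2 peak. The tRNA share was 7.78 times the window share in HSC, on only 2 genes, 22.8 times in replicate 1 and 48.3 times in replicate 2. At the ends of protein-coding genes, windows of the same length were overlapped in 2.81%, 14.3% and 14.0% of 43676 cases in HSC, replicate 1 and replicate 2. The tRNA share was below that of gene ends in HSC and in replicate 1, and slightly above it in replicate 2, where the interval of the tRNA share includes the gene-end value.

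Other short RNA genes, of at most 400 bp, gave 0.244% in HSC, 2.36% in replicate 1 and 2.06% in replicate 2 of 3686 genes. Genes of snoRNAs, which guide RNA modification and mostly sit in introns, were marked in 0.672% and 0.522% of 1340 cases in the MPP libraries. Genes of snRNAs, the RNAs of the spliceosome, reached 1.79% and 2.69% of 1004, and miRNA genes 2.04% and 1.71% of 1228. Of these 4 kinds only the 62 rRNA genes stood above tRNA genes, with 50.0% marked in replicate 1 and 25.8% in replicate 2.

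**Figure D1:**
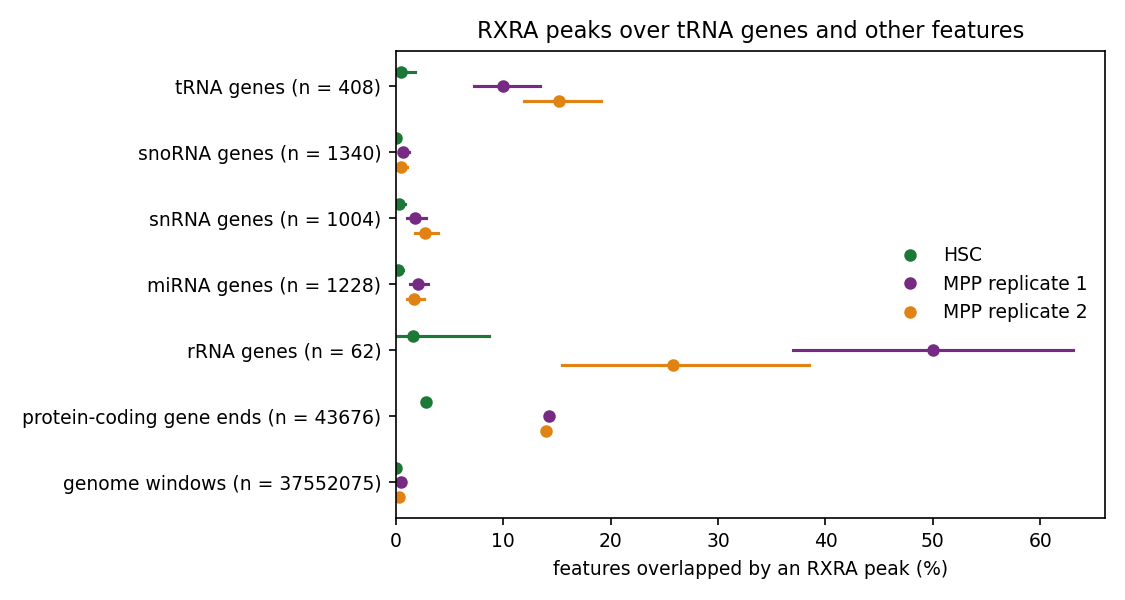
Percent of each kind of feature overlapped by an RXRA peak (horizontal axis, %) in each library; points are shares and lines 95% exact binomial intervals of counting error. The tRNA genes sit at 0.490%, 10.0% and 15.2% in HSC, MPP replicate 1 and MPP replicate 2, above snoRNA, snRNA and miRNA genes in both MPP libraries and below rRNA genes.

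The same genes recurred in both MPP libraries in part. Both lists marked 26 genes, or 6.37% of all (4.20 to 9.20), which is 63.4% of the genes marked in replicate 1 (46.9 to 77.9) and 41.9% of those marked in replicate 2 (29.5 to 55.2). A further 15 genes were marked in replicate 1 alone and 34 in replicate 2 alone, and the other 2 were marked in HSC and replicate 2. No gene was marked in all 3 libraries (upper bound 0.900%). Together 77 genes (18.9%, 15.2 to 23.0) had a peak in some library and 331 had none.

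At the 26 shared genes the peaks of the 2 libraries overlapped each other in every case. Their summits lay a median of 40.5 bp apart, and over 200 bp apart at 2 genes. Counted by peak, 26 of the 38 replicate 1 peaks over tRNA genes overlapped a replicate 2 peak (68.4%, 51.3 to 82.5), beside 44.9% of all nuclear replicate 1 peaks. In the other direction 29 of 57 did (50.9%, 37.3 to 64.4), beside 68.1% of all replicate 2 peaks. The tRNA share was thus above that of the whole list in replicate 1 and below it in replicate 2.

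Sharing with HSC was low in either case. An HSC peak overlapped 1 of the 38 replicate 1 peaks (2.63%, 0.0666 to 13.8), against 9.73% of all replicate 1 peaks, a value inside that interval. It overlapped 3 of the 57 replicate 2 peaks (5.26%, 1.10 to 14.6), against 15.9% of all replicate 2 peaks.

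Depth, judged only by the background recovered from the peaks, differed between the libraries. HSC had the lowest background and the fewest marked genes, but of the MPP libraries the deeper, replicate 1, had fewer marked genes than replicate 2. The genome-wide background recovered from the peaks was 0.604 fragments in HSC, 2.87 in replicate 1 and 1.08 in replicate 2. The lowest pileup called, that is the fewest overlapping fragments at a summit, was 5, 10 and 6 fragments, or 8.28, 3.48 and 5.55 times that background. Of the tRNA peaks, 9 of 38 in replicate 1 and 56 of 57 in replicate 2 reached 8.28 times background, and among all their peaks 21.8% and 93.0% did. With the MPP lists cut to the HSC length, 4044 peaks by fold, 0 tRNA genes in replicate 1 and 3 in replicate 2 were marked, beside the 2 in HSC. The part of depth in the difference between HSC and MPP was not tested further.

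The peaks at tRNA genes were not among the strongest of their lists. The fold enrichment used here is the caller's own value in the authors' deposited lists and serves only to rank peaks within a list. In replicate 1 the median fold over tRNA genes was 4.38 (2.32 to 5.94), beside 4.39 for all nuclear peaks, and the median rank was 51.0% down the list. In replicate 2 it was 4.81 (3.54 to 9.13), beside 5.65, with a median rank of 72.3%. Among 5 equal bins of replicate 1 peaks from highest to lowest fold, 3, 11, 10, 2 and 12 peaks lay over tRNA genes. The same bins of replicate 2 held 2, 6, 13, 13 and 23.

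In pileup and width they resembled the rest. The median pileup was 19.0 fragments (11 to 37) in replicate 1 beside 18.0 for all its peaks, and 13.0 (8 to 36) in replicate 2 beside 13.0. Median widths were 286 bp beside 305 in replicate 1, and 339 bp beside 334 in replicate 2. Peaks over tRNA genes made up 0.127% of the 29837 nuclear peaks of replicate 1, 0.291% of the 19557 of replicate 2 and 0.0247% of the 4044 of HSC. A single peak spanned a pair of tRNA genes in 3 cases in replicate 1, 5 in replicate 2 and 1 in HSC.

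Over all 408 genes, peak coverage in the MPP libraries was highest at the middle of the tRNA genes, in replicate 2 equally at 100 bp after it. Coverage in replicate 1 was 9.07% at the middle of the genes, 5.27% at 500 bp to either side, 2.57% at 1 kb and 1.01% between 2 and 5 kb away. In replicate 2 it was 13.2%, 5.27%, 2.21% and 0.913% at the same distances. In replicate 1 it did not decline evenly, with 3.43% at 200 bp before the middle in genome order and 5.88% at 500 bp before it.

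A marked gene has a summit nearby because a peak overlaps it, so summits were set beside those of every 72-bp position that any peak of the same list overlaps, a level added after seeing the data. In replicate 1 the summit lay inside the gene at 14 of the 41 marked genes (34.1%, all positions 18.0%) and within 100 bp at 35 (85.4%, all positions 63.7%), with a median distance of 20.0 bp (67). In replicate 2 it lay inside at 18 of 62 (29.0%, all positions 16.6%) and within 100 bp at 44 (71.0%, all positions 60.1%), with a median of 55.5 bp (75). A peak covered the whole gene at 34 of 41 (82.9%, all positions 64.5%) and 47 of 62 (75.8%, all positions 67.4%). These shares are descriptions with no test, and the gap to the level of all positions was smaller in replicate 2 than in replicate 1 for each of these 4 measures.

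In HSC the coverage was 0.245% at the middle, on 1 gene, and highest at 1.72%, on 7 genes, at 300 bp before it in genome order. Between 2 and 5 kb away HSC coverage was 0.0198%. Genes with a peak within 1 kb but none over them numbered 12 in HSC, 62 in replicate 1 and 60 in replicate 2. The share of genome windows with such a peak was not measured, and the nearby peak may lie over a neighbouring tRNA gene.

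**Figure D2:**
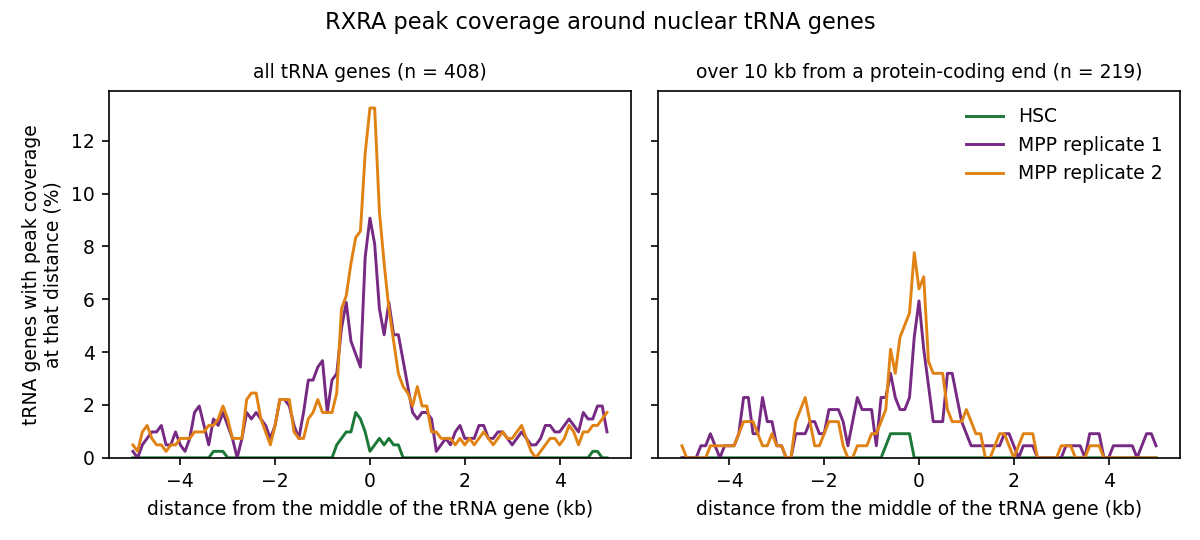
Percent of tRNA genes with peak coverage (vertical axis) at each distance from the middle of the gene in kb (horizontal axis, genome order), for all 408 genes and for the 219 that lie over 10 kb from a protein-coding end, 1 line per library. Both MPP lines peak at the gene, at 9.07% and 13.2% for all genes, while the HSC line is highest at 300 bp to one side, at 1.72%.

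Marked tRNA genes lay both near and far from protein-coding genes. Of the 408, 49 lay within 1 kb of a protein-coding gene end, 140 at 1 to 10 kb and 219 farther away, and 34 lay inside a protein-coding gene. Within 1 kb, 0 genes were marked in HSC (upper bound 7.25%, windows in the same class 0.741%), 7 in replicate 1 (14.3%, 5.94 to 27.2, windows 4.43%) and 15 in replicate 2 (30.6%, 18.3 to 45.4, windows 3.92%). At 1 to 10 kb the counts were 2 in HSC (1.43%, windows 0.0692%), 21 in replicate 1 (15.0%, 9.53 to 22.0, windows 0.647%) and 29 in replicate 2 (20.7%, 14.3 to 28.4, windows 0.400%). Over 10 kb they were 0 in HSC (upper bound 1.67%, windows 0.0359%), 13 in replicate 1 (5.94%, 3.20 to 9.94, windows 0.244%) and 18 in replicate 2 (8.22%, 4.94 to 12.7, windows 0.158%).

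The share among tRNA genes was lowest over 10 kb from an end in both MPP libraries, and the window share dropped more steeply with distance. Within 1 kb the tRNA share was 3.22 times the window share in replicate 1 and 7.81 times in replicate 2. At 1 to 10 kb it was 23.2 and 51.7 times, and over 10 kb 24.3 and 51.9 times. Other short RNA genes over 10 kb from an end were marked in 1.74% and 1.37% of 2417 cases in the MPP libraries. At 1 to 10 kb they were marked in 2.40% and 2.00% of 998, and within 1 kb in 7.75% and 8.49% of 271. Within 1 kb, the replicate 1 interval of the tRNA share (5.94 to 27.2) includes the 7.75%.

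When peaks with a summit within 1 kb of a protein-coding gene end were left out, 34 tRNA genes stayed marked in replicate 1 (8.33%) and 47 in replicate 2 (11.5%), with the 2 in HSC unchanged. Of the marked genes within 1 kb, the peak also covered the protein-coding end at 3 of 7 in replicate 1 and 8 of 15 in replicate 2. For those genes a peak of the protein-coding gene and one of the tRNA gene cannot be told apart.

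**Figure D3:**
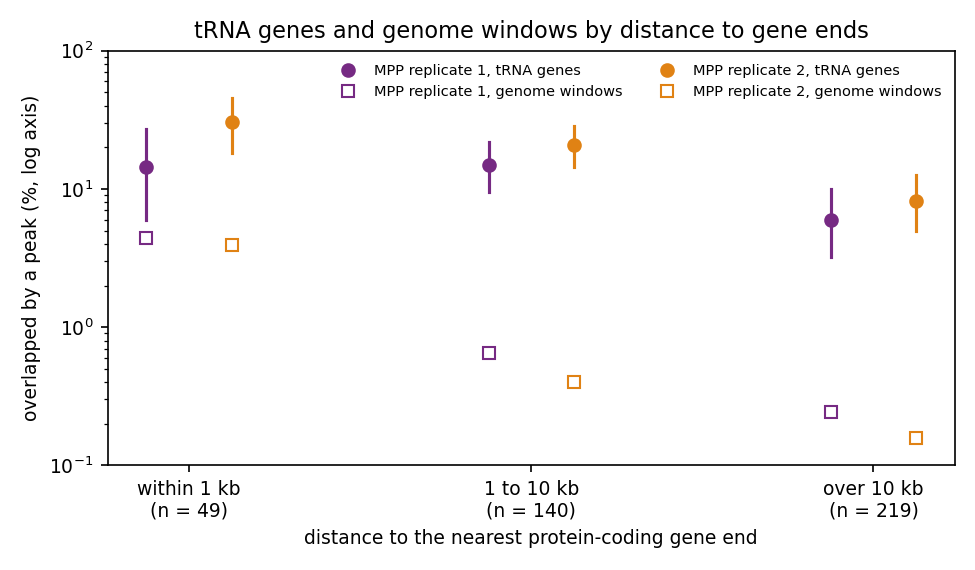
Percent of tRNA genes (filled circles, with 95% exact binomial intervals) and of 72-bp genome windows (open squares) overlapped by an MPP peak, on a log axis, by distance to the nearest protein-coding gene end. The tRNA shares lie above the window shares in all 3 classes, from 14.3% against 4.43% in replicate 1 within 1 kb to 8.22% against 0.158% in replicate 2 over 10 kb.

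Among the genes marked in both MPP libraries, the 8 with the best rank in the list where they ranked lower are described next. Of these, 4 stand alone and 7 lie over 1 kb from a protein-coding end. The highest was n-TNgtt14, an asparagine tRNA gene at chr5:149229001-149229074, which stands alone 13567 bp from the end of Uspl1, a SUMO peptidase. Its replicate 1 peak had fold 5.47 and a pileup of 22 (13.8 to 33.3, the exact Poisson interval). Its replicate 2 peak had fold 7.73 and a pileup of 17 (9.90 to 27.2), and it covered 23.0% of the gene. No HSC peak lay over it.

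The threonine gene n-TTagt9, shown above, came next. It had fold 4.81 and pileup 18 (10.7 to 28.4) in replicate 1, and fold 6.31 and pileup 14 (7.65 to 23.5) in replicate 2, and both peaks covered it whole. The lysine gene n-TKctt18, at chr9:90126509-90126581, lies 11689 bp from the start of Morf4l1, a chromodomain protein of histone-modifying complexes. It had pileups of 20 (12.2 to 30.9) and 13 (6.92 to 22.2), with summits 79 and 77 bp outside the gene. It was the only one of the 26 lysine genes marked in either library.

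The threonine gene n-TTcgt3, at chr11:79704650-79704721, was covered in part. Its peaks reached over 72.2% of the gene in replicate 1 and 9.72% in replicate 2, with summits 153 and 195 bp away. The tyrosine gene n-TYgta7, at chr13:23432990-23433077, was covered whole in both libraries, with pileups of 19 (11.4 to 29.7) and 16 (9.15 to 26.0). It sits in a cluster of 10 tRNA genes.

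At n-TNgtt7, an asparagine gene at chr10:80249159-80249232, the peaks also covered the end of Ndufs7, a subunit of respiratory complex I, in which the tRNA gene lies. Pileups were 27 (17.8 to 39.3) and 15 (8.40 to 24.7). The histidine gene n-THgtg3, at chr2:122377363-122377434, had pileups of 28 (18.6 to 40.5) and 16 (9.15 to 26.0). Its summits lay 3 bp from the gene in replicate 1 and inside it in replicate 2. The asparagine gene n-TNgtt6, at chr1:171033942-171034015, had pileups of 20 (12.2 to 30.9) and 13 (6.92 to 22.2). Of these 8 genes, 3 are asparagine genes and only n-TNgtt7 has a protein-coding end within 1 kb. Among all 408 tRNA genes, 13 are asparagine genes and 49 have an end within 1 kb.

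The HSC count rested on 1 peak. The peak at chr11:69062772-69063043 had fold 5.32, rank 2344 of 4044, and a pileup of 11 fragments (5.49 to 19.7). It touched 2 neighbouring genes, n-TTagt7 for threonine at chr11:69062744-69062817 and n-TSgct3 for serine at chr11:69063042-69063123. At n-TSgct3 it reached only the outermost bases of the gene, and the HSC count was 1 with at least 50% of the gene covered. The 2 genes lie 1168 and 1466 bp from an end of Borcs6, a subunit of a complex that positions lysosomes. A replicate 2 peak at chr11:69062774-69063190, with fold 4.59 and a pileup of 15 (8.40 to 24.7), lay over the same pair, and replicate 1 had none there. These genes are named outside the rule, after their values were seen.

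More HSC peaks lay beside tRNA genes than over them. Within 250 bp of a gene, HSC peaks were found at 10 of 408 (2.45%, 1.18 to 4.46), where 0.137% of the genome windows had one, a ratio of 17.9. The counts for replicate 1 and replicate 2 were 61 (15.0%, windows 0.978%) and 91 (22.3%, windows 0.668%). Of the 10 genes, 6 lay within 1 kb of a protein-coding end, and the HSC peak covered that end for 4 of them. They belong to Tmpo, a protein of the nuclear lamina with n-TWcca2 and n-TDgtc16 beside it, to Lta4h, an enzyme of leukotriene synthesis, and to Ppp6r3, a regulatory subunit of protein phosphatase 6.

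Of the 10 genes, 5 had a peak within 250 bp in all 3 libraries. One of them, n-TRccg1, an arginine gene at chr11:107012866-107012938, lies 10331 bp from a protein-coding end. Its HSC peak ended 144 bp before the gene, with a pileup of 9 (4.12 to 17.1), while the MPP peaks overlapped it with pileups of 12 (6.20 to 21.0) in both.

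The tRNA peak of highest fold in replicate 2 touched n-TWcca2, a tryptophan gene inside Tmpo. It had fold 9.13, rank 1207 and a pileup of 27 (17.8 to 39.3), covered 43.1% of the gene and reached over the Tmpo end 269 bp away. The HSC peak there, with a pileup of 12 (6.20 to 21.0), stopped 56 bp from the gene. The leucine gene n-TLaag4, at chr7:120917517-120917598, lies 180 bp before the start of Polr3e, a subunit of RNA polymerase III. In replicate 2 a peak of fold 7.27 and pileup 18 (10.7 to 28.4) covered both. In replicate 1 a peak of pileup 19 lay within 1 kb of an end of Polr3e but not over the tRNA gene. The Polr3e promoter window is shown because 1 peak covers both kinds of promoter, with the 71 of 82 bases of n-TLaag4 that fall in it in capitals.
Polr3e promoter, chr7:120917528-120917827, plus strand: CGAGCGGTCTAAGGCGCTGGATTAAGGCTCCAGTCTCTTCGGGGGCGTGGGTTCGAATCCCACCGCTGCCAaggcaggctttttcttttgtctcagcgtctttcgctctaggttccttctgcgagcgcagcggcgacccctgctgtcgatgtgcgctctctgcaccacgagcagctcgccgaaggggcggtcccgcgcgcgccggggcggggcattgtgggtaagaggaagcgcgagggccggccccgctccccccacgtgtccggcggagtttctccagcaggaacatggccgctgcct

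By amino acid, marked genes were spread widely but unevenly. The 408 genes serve 20 amino acids through 48 anticodons, and 17 amino acids had a marked gene in replicate 1, 18 in replicate 2 and 14 had a gene marked in both. Asparagine and tyrosine genes had the highest shares over both MPP libraries. Of 13 asparagine genes, 5 were marked in replicate 1 (38.5%, 13.9 to 68.4) and 6 in replicate 2 (46.2%, 19.2 to 74.9), 4 of them in both. Of 10 tyrosine genes, 4 were marked in replicate 1 (40.0%, 12.2 to 73.8) and 5 in replicate 2 (50.0%, 18.7 to 81.3), 4 of them in both.

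The asparagine genes stand in 13 separate clusters or single sites, so their peaks are separate ones, whereas the tyrosine genes fall in 5 clusters. Of the 8 asparagine genes over 10 kb from a protein-coding end, 3 were marked in each MPP library. Glutamate followed, with 4 and 7 of 20 genes marked, and all 4 in replicate 1 were among the 7. Threonine had 2 and 5 of 18, leucine 4 and 6 of 26, arginine 4 and 4 of 24 with 2 in both, and serine 1 and 5 of 22. Glycine had 2 and 6 of 28 but only 1 gene in both libraries.

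Some classes differed between the libraries. Alanine genes were marked 3 times in replicate 1 and 1 time in replicate 2 of 33, with no gene in both. Phenylalanine had 2 of 7 in replicate 1 and 0 in replicate 2, while isoleucine had 0 and 2 of 16. Methionine genes, which include those for the initiator, had 1 and 3 of 16 and none in both. The intervals include the shares over all tRNA genes, 10.0% and 15.2%, for every amino acid but asparagine, tyrosine and cysteine, and glutamate in replicate 2. No class was tested.

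Cysteine and glutamine stood lowest. Of 57 cysteine genes, 1 was marked in each MPP library (1.75%, 0.0444 to 9.39), and it was the same gene. None of the 16 glutamine genes was marked in any library, which leaves an upper bound of 20.6%. The cysteine genes are concentrated, with 49 of them on chromosome 6 in a stretch of 385 kb. The marked one, n-TCgca57 at chr6:47978997-47979068, is the outermost of that stretch, with pileups of 17 (9.90 to 27.2) in replicate 1 and 9 (4.12 to 17.1) in replicate 2 and both summits inside the gene. The 8 cysteine genes elsewhere had no peak. Without the 49 genes, 11.1% of the other 359 were marked in replicate 1, 17.0% in replicate 2 and 25 genes in both.

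**Figure D4:**
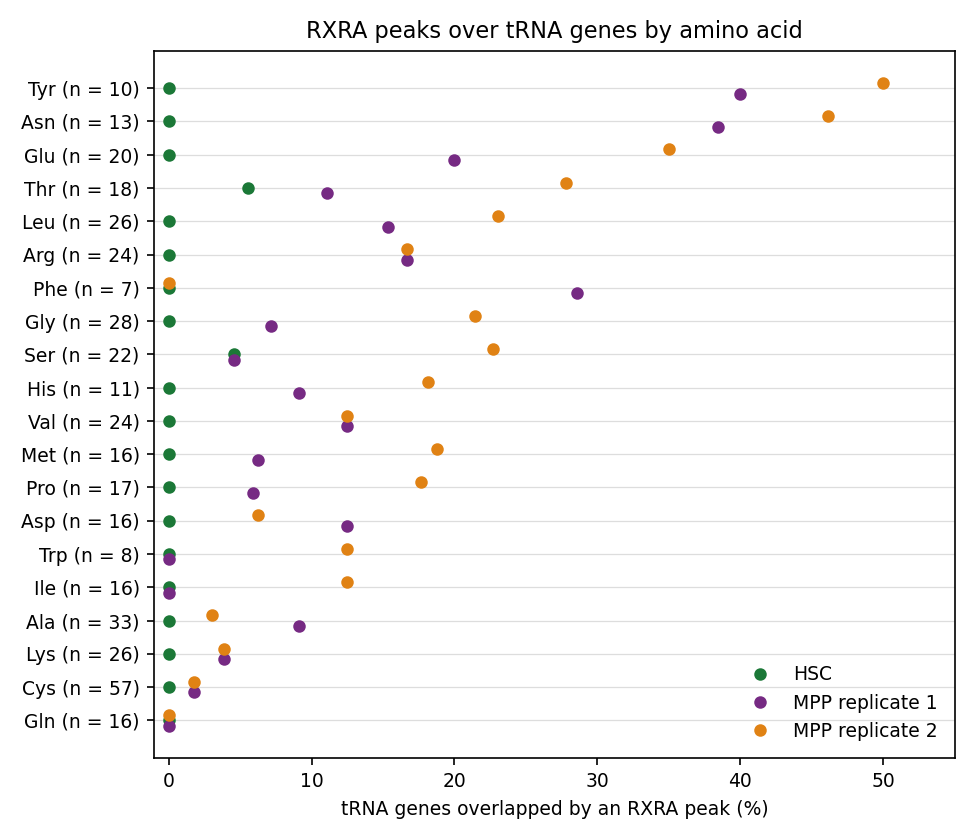
Percent of tRNA genes overlapped by an RXRA peak (horizontal axis) for each amino acid, with the number of genes in brackets and 1 point per library. Tyrosine (40.0% and 50.0% in the MPP libraries) and asparagine (38.5% and 46.2%) lie at the top, and cysteine (1.75% in both) and glutamine (0) at the bottom.

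Single genes and genes in clusters showed no fixed order in their shares. With neighbours joined at gaps up to 5 kb, the 408 genes formed 80 clusters of 2 or more, with up to 15 genes, and 131 single genes. In replicate 1, 9.92% of single and 10.1% of clustered genes were marked. In replicate 2, 18.3% of single (12.1 to 26.0) and 13.7% of clustered genes (9.89 to 18.3) were. The order of the shares turned with the gap. At 2 kb replicate 2 had 13.8% of single and 16.4% of clustered genes marked, and at 20 kb replicate 1 had 10.8% of single and 9.80% of clustered genes. Of the 80 clusters, 1 had a peak in HSC, 22 in replicate 1 and 27 in replicate 2, but every gene was marked in only 2 clusters in each MPP library.

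The 3 largest clusters held few marked genes. Of all tRNA genes, 10.0% were marked in replicate 1 and 15.2% in replicate 2, and the intervals of all 3 clusters include those shares. The cluster of 15 genes from n-TMcat2 to n-TSaga8 on chromosome 13 spans 33.9 kb. It had 1 marked gene in replicate 1 (6.67%, 0.169 to 31.9) and 0 in replicate 2 (upper bound 21.8%). The cluster of 13 cysteine genes on chromosome 6, over 28.7 kb, had none in any library (upper bound 24.7% in each MPP library). The 10 genes from n-TYgta3 to n-TAcgc10 on chromosome 13, over 13.1 kb, had 1 (10.0%) and 2 (20.0%), with n-TYgta7 in both, close to the shares over all tRNA genes.

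On a coarser scale, chromosome 13 holds 105 tRNA genes, of which 6 were marked in replicate 1 (5.71%), 8 in replicate 2 (7.62%) and 1 in both. None of the 17 genes of the X chromosome was marked in any library (upper bound 19.5% in each MPP library). On chromosome 11, 7 of 52 genes were marked in replicate 1 (13.5%, 5.59 to 25.8). In replicate 2 the count was 13 (25.0%, 14.0 to 38.9), with 6 in both. Over all tRNA genes the shares were 10.0% in replicate 1 and 15.2% in replicate 2. The intervals of these chromosomes include those shares, except for chromosome 13 in replicate 2 (3.35 to 14.5). No chromosome was tested.

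One domain on chromosome 1 held many of the shared genes. It spans 77.6 kb at chr1:171033942-171111515 and holds 25 tRNA genes. Fcgr4 and Fcgr3, which encode receptors for the constant part of antibodies, are protein-coding genes of this region. A protein-coding end lies inside the domain, and 3 of its 25 tRNA genes are within 1 kb of an end. At n-TLcag6 the summit of the replicate 1 peak lay 70 bp from an end. In each MPP library 9 of the 25 were marked (36.0%, 18.0 to 57.5), beside 10.0% and 15.2% of all tRNA genes in replicate 1 and replicate 2. Of the 25 genes, 6 were marked in both and 12 in either. HSC had no peak in the domain. It was joined with a gap of 500 kb and singled out after its values were seen.

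In its middle stand 3 groups of 5 tRNA genes in the same order of amino acids, glutamate, glycine, aspartate, leucine and glycine, 7.63 and 7.61 kb apart. Of these 15 genes 5 were marked in each MPP library and 3 in both. The glutamate gene leads each group. It was marked at n-TEctc5 and n-TEctc8 in both libraries, with pileups of 37 and 35 fragments in replicate 1 and 28 and 25 in replicate 2, and at n-TEctc7 in replicate 2 alone, with 36. The aspartate genes of the 3 groups, n-TDgtc3, n-TDgtc7 and n-TDgtc6, had no peak.

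The local background was raised there. It was 3.28 to 4.00 times the genome-wide background at the peaks over the 3 groups in replicate 1 and 4.69 to 5.70 times in replicate 2. At the marked genes of the domain outside them, it was 1.00 to 1.06 and 1.32 to 1.55 times. Of these 10 genes 4 were marked in each MPP library. Over all tRNA genes, the local background exceeded 2 times the genome-wide one at 5 of 38 peaks in replicate 1 (13.2%, all peaks 2.31%) and at 11 of 57 in replicate 2 (19.3%, all peaks 8.97%). The 1 HSC peak also exceeded it (all peaks 10.3%). How reads were placed among near-identical gene copies is not given in the sources used here, so which copy a peak belongs to is uncertain, and its part in these counts was not tested.

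**Figure D5:**
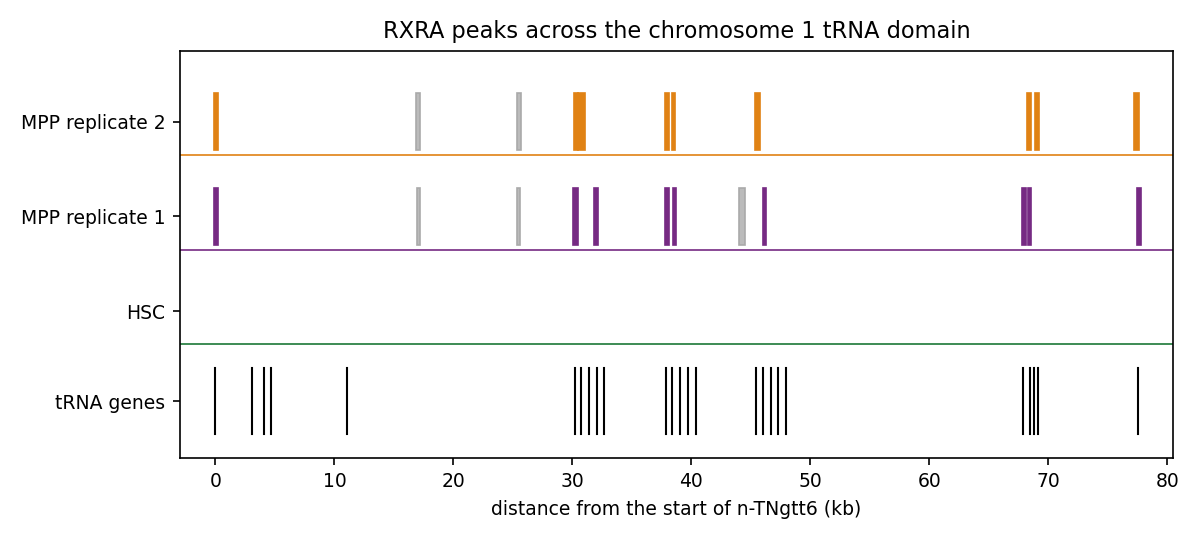
Map of the 25 tRNA genes (black ticks) of the chromosome 1 domain and of the RXRA peaks of each library (bars at their width, coloured where they overlap a tRNA gene and grey where they do not), by distance from the start of n-TNgtt6 in kb. In each MPP library 9 of the genes are overlapped, among them the leading gene of the first and second of the 3 evenly spaced groups, and the HSC row is empty.

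In the MPP libraries, genes for the machinery that makes and handles tRNA had higher shares with a peak at an end than protein-coding genes at large. A peak within 1 kb of an end was found at 8.18% of 21887 protein-coding genes in HSC, 41.2% in replicate 1 and 35.9% in replicate 2. Of 35 genes of the RNA polymerase III machinery, 3 were marked in HSC (8.57%, 1.80 to 23.1), 27 in replicate 1 (77.1%, 59.9 to 89.6) and 23 in replicate 2 (65.7%, 47.8 to 80.9), 21 of them in both MPP libraries. The HSC share was near that of all genes.

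In all 3 libraries a peak lay at Polr3f, a subunit of the polymerase, with pileups of 11, 17 and 17 fragments in HSC, replicate 1 and replicate 2. The same held for Snapc5, a subunit of the complex that starts transcription of small nuclear RNA genes, with 13, 49 and 31. Gtf3a, which encodes the factor that starts 5S rRNA transcription, had peaks in HSC and replicate 1. Of the TFIIIC subunits, Gtf3c1, Gtf3c2 and Gtf3c6 were marked in both MPP libraries, Gtf3c4 and Gtf3c5 in replicate 1 and Gtf3c3 in none. Maf1, the repressor of the polymerase, had no peak within 1 kb of an end in any library.

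Of 42 genes of tRNA processing and export, 7 were marked in HSC (16.7%, 6.97 to 31.4), 32 in replicate 1 (76.2%, 60.5 to 87.9) and 34 in replicate 2 (81.0%, 65.9 to 91.4). All 3 libraries marked 6 of them. Clp1, an RNA kinase of the splicing complex, had pileups of 10, 23 and 23. Trmt6, of the adenosine methyltransferase, had 9, 26 and 14, and Rpp38, of ribonuclease P, had 10, 17 and 14. Xpot, the tRNA exporter, had 7, 31 and 36. The other two were Adat3, of the wobble deaminase, and Elp3, of the Elongator complex.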

How the data were processed

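Peaks were called once per library. MACS2 2.1.4, Bowtie2 2.3.4.1, cutadapt 1.9.1 and Trim Galore 0.4.2 appear in the submitters' processing notes, with mm10 as the build. For settings, reads with several placements, duplicates and control libraries, details were not given in the sources used here. Each deposited list lacks a header and holds, per peak, a fold enrichment ratio at the summit, −log10 p and −log10 q, all taken as the authors deposited them. The deposited score column was not used. Mitochondrial peaks were left out.

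From the fold and p of each peak, a whole pileup of fragments and a local background were solved, with 1 added to each in the fold and with a Poisson p. A whole pileup fitted the deposited −log10 p to 0.001 for 99.98%, 100% and 99.99% of peaks in HSC, MPP replicate 1 and MPP replicate 2. The lowest local background of a list stood for the genome-wide one. Pileup intervals (exact Poisson, 95%) cover counting error only. No total read count was used.

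Amino acid and anticodon were read from gene symbols, of which 6 had another format. The table gives no strand, so an end of a protein-coding gene may be its start or its finish. Exhaustive genome windows took the place of random placement of peaks, and no test was run. Overlaps were checked against bedtools and on simulated peaks. Named tRNA genes are the 8 of best worse rank in both MPP lists and the 3 largest clusters; others were named after their values were seen. The members, lists and rules were chosen with earlier results of these data known. Alternatives were a stricter q, shorter lists, other overlaps, other distances and gaps, clusters counted once, and leaving out a chromosome or a library.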

Additional observations from a re-analysis of the deposited data

How the results depend on the processing

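Of 73 alternatives, 55 left the value within 1.5 times the count or within the interval of the share. Part of the 55 could not move, such as HSC cut to its own length or a stricter filter on a count of 0. Leaving out the 1% of highest fold could not move a count either, since no tRNA peak ranked that high. Counts were compared without their totals, such as 35 of 211 clusters beside 41 of 408 genes in replicate 1. The order of 2 shares or counts did turn in some alternatives. Single against clustered genes turned in replicate 2 at a gap of 2 kb (13.8% and 16.4%) and in replicate 1 at 20 kb (10.8% and 9.80%), and with lists of HSC length HSC had 2 marked genes and replicate 1 had 0. With peaks of q at or below 1e-05, marked genes numbered 0 in HSC, 22 in MPP replicate 1, 28 in MPP replicate 2 and 10 in both MPP. With the 4044 peaks of highest fold, the HSC length, they numbered 0, 3 and 0 in replicate 1, replicate 2 and both, and with the 19557 of highest fold, chosen after seeing the data like the removal of peaks near protein-coding ends and of the chromosome 6 cysteine genes, 26 in replicate 1 and 17 in both. Counting peaks within 250 bp gave 10 in HSC, 45 in both MPP and 5 in all 3. The HSC count was 1 with 50% of the gene covered, with the summit within 100 bp, or with clusters counted once. Leaving out a replicate gave 41 to 62 genes in place of 26 in both MPP, and 0 to 2 in place of 0 in all 3 libraries; the 2 come from HSC and replicate 2, without replicate 1. No paired analysis was possible because HSC has 1 library and the groups share fewer than 2 replicate numbers. The lowest called HSC peak stood at 8.28 times background, beside 3.48 and 5.55 times in replicate 1 and replicate 2, which limits what its 2 marked genes can show. Depth, cell number and cell type differ together between HSC and MPP. Their parts in the HSC count cannot be told apart and were not tested.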

Other observations

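Other genes read by RNA polymerase III carried peaks as well. Of 10 other transcripts, HSC marked 2, MPP replicate 1 marked 5 and MPP replicate 2 marked 6. Over the 3686 other short RNA genes, rRNA genes included, the marked shares were 0.244%, 2.36% and 2.06% in HSC, replicate 1 and replicate 2. Both 7SL genes, Rn7s1 and Rn7s2, which encode the RNA of the signal recognition particle, were marked in all 3 libraries, with pileups of 10, 24 and 23 fragments at Rn7s1 and 13, 21 and 15 at Rn7s2. Rn7s1 lies 109 bp from an end of Rps29, a ribosomal protein gene, and Rn7s2 lies 3982 bp from one of Nemf. Rn7sk, the RNA that restrains transcription elongation, had pileups of 33 and 27 in the MPP libraries and none in HSC, 3188 bp from a protein-coding end. Rmrp and Rpph1, the RNAs of the ribonucleases MRP and P, were marked in both MPP libraries, with 22 and 21 and with 20 and 23 fragments, and both lie within 1 kb of a protein-coding end. The Y RNA genes Rny1 and Rny3, Bc1 and Rnu6 had no peak in any library. Of 52 genes for 5S rRNA, 1 was marked in HSC, 25 in replicate 1 and 11 in replicate 2, with 10 in both MPP libraries. They are near-identical copies, so the gene to which a peak belongs is uncertain.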
